A study of Mus musculus with 12 samples.

Results

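The genes described here are those of de novo lipogenesis, the route by which an adipocyte builds fatty acids from sugar carbon: Scd1, Scd2, Fasn, Acaca, Acacb, Acly, Elovl6, Srebf1, Mlxipl and Me1. They were taken by symbol from a table of 14775 genes, and 10 of the 10 listed genes were found, all of them in each of 12 libraries. RNA was sequenced from immortalized murine brown adipocytes in culture after 4 h with 1 pM chlorpyrifos (CPF, an organophosphate insecticide) or with the vehicle dimethyl sulfoxide, and the question was what this dose does to transcripts. There were 6 libraries of each group (replicates 1 to 6), and the sources do not say whether these were separate cultures, so that p-values measure the spread between libraries, which may be technical.

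CPF libraries came from cells kept for 4 h in Krebs-Ringer buffer with 1% fatty-acid free albumin and 1 pM CPF. Vehicle libraries came from cells in the same buffer and albumin with dimethyl sulfoxide and 0 pM CPF. Cells of both groups were TMCON preadipocytes, an immortalized mouse line. They had been induced for 2 days with a cocktail of IBMX, indomethacin, dexamethasone, T3 and insulin. They were then held for 7 days in 1 nM T3 and 20 nM insulin and treated on day 9, when the authors describe their cells as fully differentiated. As a model these cells are a cultured line, without the nerves, vessels and immune cells of brown fat. Insulin and T3, which both act on lipogenic genes, were in the medium of both groups before the buffer was applied.

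In de novo lipogenesis, citrate leaves the mitochondrion and ATP citrate lyase (Acly) splits it into acetyl-CoA, which the acetyl-CoA carboxylases (Acaca and Acacb) turn into malonyl-CoA. Fatty acid synthase (Fasn) joins these units into palmitate with NADPH that malic enzyme (Me1) helps to supply, Elovl6 lengthens palmitate to stearate, and the stearoyl-CoA desaturases (Scd1 and Scd2) place a double bond in the product. The insulin-responsive factor SREBP-1 (Srebf1) and the sugar-responsive factor ChREBP (Mlxipl) switch these genes on, and brown fat is known to run fatty acid synthesis and fatty acid burning side by side.

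With all 12 libraries no lipogenic transcript was called between CPF and vehicle, as was true by limma of every gene tested, so the count says nothing particular to these genes. Without CPF replicate 1, which stood apart, the 95% intervals of Acaca (log2 fold change 0.23) and Srebf1 (0.14) lay above 0, and neither passed the adjusted threshold. Without that library 8.49% of tested genes were higher at an unadjusted p under 0.05 by limma. With limma on log2 of the normalized count plus 1, 0 of the 10 genes passed an adjusted p under 0.05 (Benjamini-Hochberg over all 13531 genes tested), where 0 genes of the table passed (0%). At an unadjusted p under 0.05 the count was 0 of 10 in either direction, against 2.77% of tested genes higher and 4.55% lower (990 genes in all). The genes were not called either by edgeR, which called 0 genes of the table (1064 at an unadjusted p under 0.05), or by DESeq2, which called 6 genes, all lower. In 0 of the 10 genes did the CPF and vehicle libraries fail to overlap, against 0.466% of tested genes.

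A pair of libraries stood apart in these cells and bears on every value that follows. In a principal component analysis the leading axis (29.1% of the variance) put CPF replicate 1 at -33.0 and vehicle replicate 2 at -31.5, and the other libraries between -6.12 and 13.7. On the next axis this pair lay at opposite ends, CPF replicate 1 at -26.6 and vehicle replicate 2 at 27.45, with the other libraries between -16.3 and 10.9. Recovered depth was 9313253 to 14166615 reads in CPF libraries and 7875502 to 12100594 in vehicle libraries. Markers of mature adipocytes (Adipoq, Fabp4, Plin1, Cidea, Lpl, Pparg, Cebpa and Cfd, 8 of 8 in the table) summed to 61293, 100317 and 105519 normalized counts in CPF libraries (lowest, median, highest), against 77031, 88500 and 95722 in vehicle libraries, with the lowest sum in CPF replicate 1. Markers of preadipocytes and fibroblasts (10 of 11 in the table, Dpp4 not among its genes) summed to 74616, 82032 and 91332 in CPF libraries, against 79170, 89554 and 137801 in vehicle libraries, with the highest sum in vehicle replicate 2. Of the 5 macrophage markers only Csf1r and Cd68 were among the genes of the table, at a sum of 132 to 162 in CPF libraries and 101 to 160 in vehicle libraries. Of the 4 skeletal muscle markers only Acta1 was, at 15.4 to 52.2 in CPF libraries and 12.8 to 35.9 in vehicle libraries, and of the 4 endothelial markers 0 were. In bulk RNA, fewer differentiated cells and less of a transcript per cell cannot be told apart.

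The bases upstream of 3 of these genes are shown, each read from RefSeq on GRCm38.p6 and ending at the base before the annotated start of transcription. Whether they bear on the values of the libraries was not tested. Capitals mark every match on either strand to the motifs searched. The box bound by NF-Y was searched as CCAAT. The GC box was searched as GGGCGG. An E-box of the kind bound by ChREBP, USF and SREBP-1 was searched as CACGTG. The sterol response element was searched as TCACNCCAC. The TATA box was searched as TATAAA. Windows were found for 8 of the 10 genes, all but Scd1 and Scd2, with 12 windows in all.

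Fasn, chr11:120824548-120824797, minus strand: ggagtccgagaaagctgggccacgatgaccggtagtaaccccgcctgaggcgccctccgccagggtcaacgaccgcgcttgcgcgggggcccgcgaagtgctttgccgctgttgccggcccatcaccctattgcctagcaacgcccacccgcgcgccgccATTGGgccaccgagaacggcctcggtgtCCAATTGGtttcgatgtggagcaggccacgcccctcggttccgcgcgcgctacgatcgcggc

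Acly, chr11:100528001-100528250, minus strand: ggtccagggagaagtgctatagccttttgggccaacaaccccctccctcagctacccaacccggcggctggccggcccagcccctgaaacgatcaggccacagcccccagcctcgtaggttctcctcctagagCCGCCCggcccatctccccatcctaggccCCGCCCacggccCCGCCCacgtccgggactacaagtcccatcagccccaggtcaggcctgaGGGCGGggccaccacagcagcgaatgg

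Srebf1, chr11:60210472-60210721, minus strand: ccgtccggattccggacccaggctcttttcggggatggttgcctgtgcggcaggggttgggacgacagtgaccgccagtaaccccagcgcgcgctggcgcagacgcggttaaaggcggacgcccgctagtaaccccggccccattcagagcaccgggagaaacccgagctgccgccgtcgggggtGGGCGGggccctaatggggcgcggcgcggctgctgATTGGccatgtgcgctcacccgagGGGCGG

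The Fasn window held 3 CCAAT matches, at -90, -62 and -59 from the start, of which the last pair overlap on opposite strands. The Acly window held 4 GC boxes, at -117, -88, -76 and -27. The Srebf1 window, the most downstream of 3 for this gene, held a CCAAT match at -30 and GC boxes at -65 and -6. CCAAT was found in 6 of the 12 windows (5 of the 8 genes), beside 33.9% of all 32851 windows of this length. GGGCGG was found in 5 of the 12 windows (4 genes), beside 32.7%. CACGTG and TCACNCCAC were each found in 1 of the 12 windows, of Mlxipl in both cases, beside 6.02% and 1.05% of all windows. TATAAA was found in 1 of the 12, that of Acacb, beside 12.4%. These matches describe the letters of the windows and do not show binding.

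Scd1 was by far the most abundant of the lipogenic transcripts. It lies on chromosome 19 (GRCm38, 44394455 to 44407879, minus strand), is protein coding and has 7 exon blocks in GENCODE M21, and its product makes oleate from stearate. Its normalized counts were 163685, 212611 and 219721 in CPF libraries (lowest, median, highest), against 178233, 205658 and 268930 in vehicle libraries. The lowest value of all 12 libraries was that of CPF replicate 1 and the highest that of vehicle replicate 2, and the remaining CPF libraries (203601 to 219721) lay inside the vehicle range.

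The mean of Scd1 was 204501 ± 20672 in CPF libraries and 211951 ± 30185 in vehicle libraries (SD, n = 6 each). The log2 fold change by limma was -0.05 (SE 0.11, 95% interval -0.28 to 0.19, adjusted p = 0.944), and an exact two-sided permutation test over all 924 arrangements gave p = 0.680. As a fold, this interval spans 0.821 to 1.14 of the vehicle level. Once CPF replicate 1 was left out the log2 fold change was 0.02 (95% interval -0.15 to 0.18), and without vehicle replicate 2 as well it was 0.09 (-0.03 to 0.20), so that its sign followed these libraries.

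In reads, Scd1 took 1.68%, 2.06% and 2.12% of a CPF library (lowest, median, highest), against 1.74%, 2.00% and 2.57% of a vehicle library. It was the gene with the most reads in 10 of 12 libraries, 6 of CPF and 4 of vehicle, and in vehicle replicates 4 and 6 it came after mt-Co1, a mitochondrially encoded subunit of cytochrome c oxidase. Counting error was small beside the spread: in CPF replicate 1, the shallowest CPF library, the Wilson 95% interval of the share was 1.68% to 1.69%. The 10 lipogenic genes together took 2.18%, 2.90% and 3.00% of a CPF library, against 2.45%, 2.85% and 3.45% of a vehicle library.

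**Figure D1:**
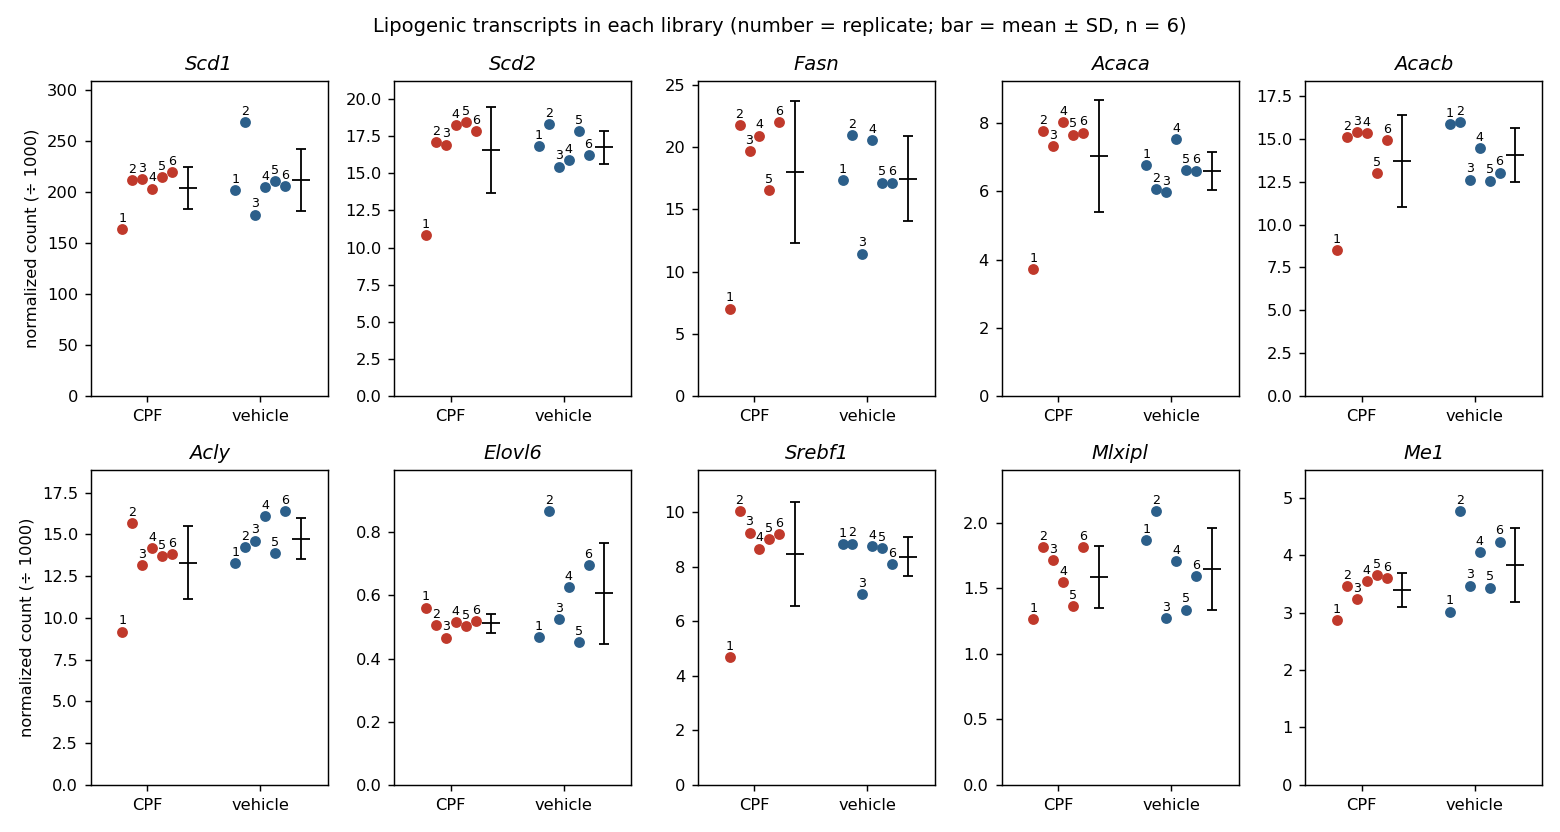
Normalized counts (axes from 0, scaled as labelled) of the 10 lipogenic genes in each library, CPF in red and vehicle in blue; numbers are replicates and black bars the mean ± SD (n = 6). CPF replicate 1 is the lowest of the 12 libraries in 9 of the 10 panels, all but Elovl6, and vehicle replicate 2 the highest in 5.

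Scd2, the isoform next to it on chromosome 19 (44293674 to 44306864, plus strand), is known as the desaturase of brain and early skin. Its counts were 10817, 17467 and 18443 in CPF libraries, against 15452, 16513 and 18294 in vehicle libraries. Apart from CPF replicate 1, every CPF library (16938 to 18443) was above the vehicle median, and the groups overlapped. The log2 fold change was -0.04 (SE 0.11, 95% interval -0.28 to 0.20, adjusted p = 0.956 by limma), and without CPF replicate 1 it was 0.08 (adjusted p = 0.481). Per length, Scd1 exceeded Scd2 by 12.5-, 13.8- and 16.9-fold in CPF libraries and by 12.9-, 13.8- and 16.4-fold in vehicle libraries (lowest, median, highest), with the highest ratios in CPF replicate 1 and vehicle replicate 2. Of the distinct 50-base stretches of Scd1 4.56% were also present in transcripts of other genes, and of those of Scd2 3.97%. They were shared with each other and with Scd3 and Scd4. Scd3 itself was at 350 ± 95.4 in CPF libraries and 428 ± 87.0 in vehicle libraries (SD, n = 6 each).

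Acly, which opens the pathway in the cytosol, lies on chromosome 11 (100476353 to 100528000, minus strand). Its counts were 9172, 13770 and 15675 in CPF libraries, against 13269, 14416 and 16404 in vehicle libraries. CPF replicates 1 and 3 lay below every vehicle library, CPF replicate 2 lay above the vehicle mean, and the rest overlapped. The means were 13286 ± 2186 and 14742 ± 1244 for CPF and vehicle (SD, n = 6 each), with a log2 fold change of -0.16 (SE 0.11, 95% interval -0.39 to 0.06, adjusted p = 0.742 by limma). With CPF replicate 1 left out the log2 fold change was -0.06 (-0.20 to 0.07).

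Acaca codes for the cytosolic carboxylase that feeds fatty acid synthase, and Acacb for the carboxylase at the mitochondrial surface whose malonyl-CoA restrains fatty acid import. Acaca (chromosome 11, 84129672 to 84401651, plus strand) had 3731, 7695 and 8031 normalized counts in CPF libraries, against 5983, 6618 and 7529 in vehicle libraries. CPF replicate 1 was far below every other library, CPF replicate 3 lay inside the vehicle range, and the other 4 CPF libraries were above all 6 vehicle libraries. With all libraries the log2 fold change was 0.05 (SE 0.16, 95% interval -0.29 to 0.39, adjusted p = 0.954 by limma, exact permutation p = 0.617). Without CPF replicate 1 it was 0.23 (SE 0.059, 0.10 to 0.35), which did not pass the threshold (adjusted p = 0.0873 by limma, with 11 genes or 0.0813% of the table called), and the exact permutation test over 462 arrangements gave p = 0.00866, where the smallest it can give is 0.00433. In that fit 8.49% of tested genes were higher at an unadjusted p under 0.05, Acaca and Srebf1 among them. The library left out was known to be the lowest, and it was taken from the CPF group alone. The permutation p without it is therefore no fair test of CPF.

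Acaca is the lipogenic gene whose count is least certain. Of its distinct 50-base stretches 30.4% were shared with transcripts of other genes, chiefly with Gm5182. That gene was listed at 1644 ± 389 in CPF libraries and 1580 ± 126 in vehicle libraries (SD, n = 6 each). Reads in such stretches cannot be given to either gene with certainty. Acacb (chromosome 5, 114146535 to 114250761, plus strand) shared none. Its counts were 8500, 15017 and 15405 in CPF libraries, against 12564, 13734 and 15966 in vehicle libraries, and CPF replicate 1 alone was outside the vehicle range. The log2 fold change was -0.06 (SE 0.13, adjusted p = 0.937 by limma), and 0.07 without CPF replicate 1 (adjusted p = 0.662). Per length, Acacb exceeded Acaca by 3.00-, 3.44- and 4.04-fold in CPF libraries and by 3.36-, 3.62- and 4.66-fold in vehicle libraries, a ratio that carries the uncertainty of Acaca. The ratio also depends on the length used. Mean levels per kilobase of exon were 1442 for Acacb and 400 for Acaca, and by the longest annotated transcript they were 1581 and 717.

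Fasn, the synthase itself, spanned the widest range of the 10 genes over the 12 libraries, as highest over lowest. It lies on chromosome 11 (120805846 to 120824547, minus strand), with 42 exon blocks. Its counts were 7033, 20292 and 22000 in CPF libraries, against 11450, 17266 and 20987 in vehicle libraries. CPF replicate 1 and vehicle replicate 3 were the lowest libraries of their groups, and CPF replicates 2 and 6 lay above every vehicle library. The mean was higher in CPF libraries (17988 ± 5720, against 17449 ± 3419 in vehicle libraries, SD, n = 6 each) while the log2 fold change was -0.02 (SE 0.26, 95% interval -0.58 to 0.54, adjusted p = 0.990 by limma), since the low library weighs more on the log scale. On recovered reads edgeR and DESeq2 gave 0.04 each. The limma value without CPF replicate 1 was 0.23 (-0.08 to 0.54, adjusted p = 0.449).

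Elovl6, on chromosome 3 (129532355 to 129638495, plus strand), was the rarest of the 10 and the only gene not at its lowest in CPF replicate 1. Its counts were 466, 511 and 562 in CPF libraries, against 453, 576 and 868 in vehicle libraries. The CPF libraries sat close together, every value below the vehicle mean, inside a vehicle range that vehicle replicates 2, 4 and 6 stretched upward. The means were 512 ± 30.7 for CPF and 606 ± 159 for vehicle (SD, n = 6 each), and the log2 fold change was -0.21 (SE 0.13, 95% interval -0.49 to 0.08, adjusted p = 0.739 by limma, exact permutation p = 0.177). It was -0.096 without vehicle replicate 2 (adjusted p = 0.981 by limma) and -0.23 without CPF replicate 1.

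Me1 (chromosome 9, 86581371 to 86695953, minus strand) had 2866, 3502 and 3649 normalized counts in CPF libraries, against 3018, 3760 and 4774 in vehicle libraries. The mean of the vehicle libraries was above each of the 6 CPF values, and the same 3 vehicle libraries that were high for Elovl6 were the highest for Me1. The means were 3391 ± 296 for CPF and 3831 ± 640 for vehicle (SD, n = 6 each), with a log2 fold change of -0.16 (SE 0.099, 95% interval -0.37 to 0.05, adjusted p = 0.729 by limma). Of its 50-base stretches 22.9% were shared, chiefly with Gm7049, which was listed at 495 ± 51.8 in CPF libraries and 585 ± 117 in vehicle libraries.

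Of the regulators, Srebf1 lies on chromosome 11 (60199089 to 60222581, minus strand). Its counts were 4680, 9088 and 10039 in CPF libraries, against 6993, 8702 and 8841 in vehicle libraries, and a gene count does not separate the SREBP-1a and SREBP-1c transcripts. CPF replicate 1 was below every vehicle library, and 4 CPF libraries were above all of them. The log2 fold change was -0.02 (SE 0.15, 95% interval -0.34 to 0.30, adjusted p = 0.989 by limma). Leaving out CPF replicate 1, the lowest library, gave 0.14 (SE 0.064, adjusted p = 0.271 by limma, exact permutation p = 0.0260, against 0.913 with all libraries). As for Acaca, the permutation p without that library is no fair test of CPF. With all libraries edgeR and DESeq2 gave 0.02 each.

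Mlxipl, which codes for ChREBP, lies on chromosome 5 (135089890 to 135138382, plus strand). Its counts were 1263, 1631 and 1813 in CPF libraries, against 1273, 1649 and 2090 in vehicle libraries. The lowest values of the groups were close, and the vehicle libraries reached higher, in replicates 1 and 2. The log2 fold change was -0.04 (SE 0.12, adjusted p = 0.952 by limma) and 0.02 without CPF replicate 1.

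**Figure D2:**
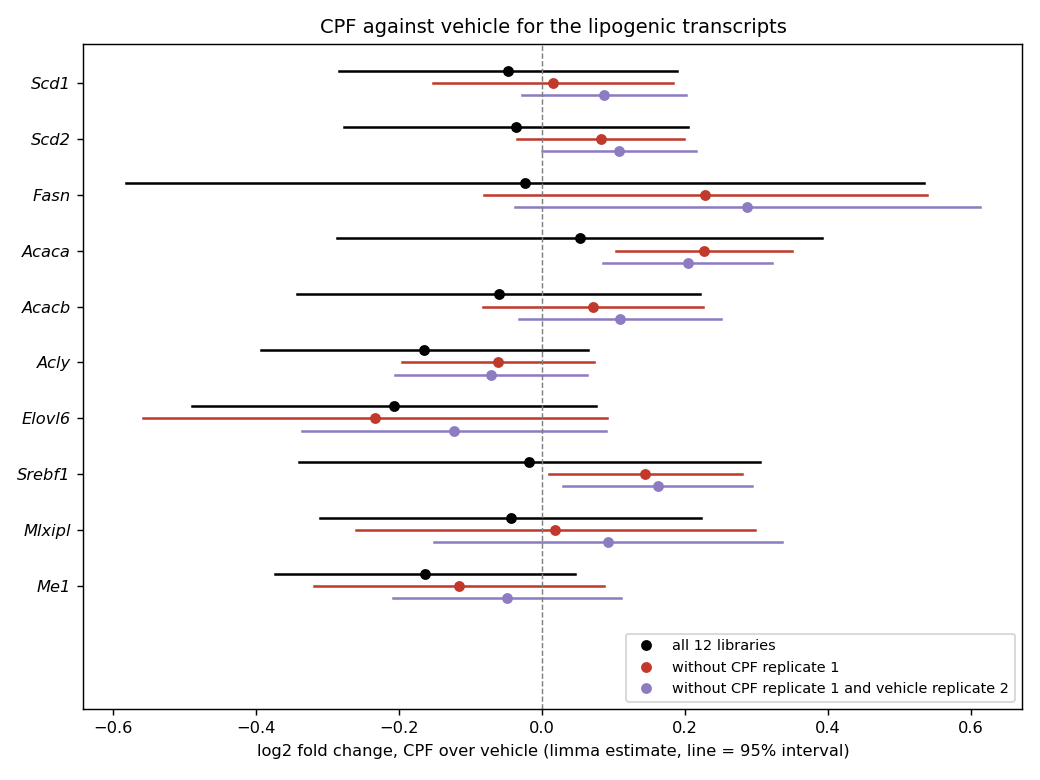
Log2 fold change of CPF over vehicle for each gene with its 95% interval (limma), from all 12 libraries (black), without CPF replicate 1 (red) and without CPF replicate 1 and vehicle replicate 2 (purple); the dashed line is no difference. With all libraries every interval crosses 0, and without CPF replicate 1 those of Acaca (estimate 0.23) and Srebf1 (0.14) lie above 0, although neither gene passed the adjusted threshold. Without vehicle replicate 2 as well, those of Acaca (0.20), Srebf1 (0.16) and Scd2 (0.11) lie above 0, and none of these genes passed. Such intervals were common: 2223 of 13522 tested genes in the red fit and 1937 of 13497 in the purple fit had an unadjusted p under 0.05, in either direction.

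Over the 10 genes, 9 log2 fold changes were negative and 1 was positive, with a median of -0.05, beside a median of -0.0015 over all tested genes (6705 positive and 6826 negative). That split turned round with CPF replicate 1: without it 7 were positive and 3 negative (median 0.05), and without vehicle replicate 2 as well the count was again 7 and 3 (median 0.10). Among replicates 1 to 3 alone 0 were positive and 10 negative (median -0.17), and among replicates 4 to 6 alone 7 were positive and 3 negative (median 0.05). The 3 genes that stayed negative in each of these fits were Acly, Elovl6 and Me1, and their values came closer to 0 without CPF replicate 1 and vehicle replicate 2, at -0.071, -0.12 and -0.049, against -0.16, -0.21 and -0.16 with all libraries. None of the 10 genes was called in any of them.

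For every gene except Elovl6, CPF replicate 1 lay farther from the median library than the log2 fold change between the groups. In CPF replicate 1, Fasn lay 1.39 log2 units below its median over the 12 libraries, a distance that only 0.584% of tested genes equalled or passed downward. Acaca was 0.92 and Srebf1 0.91 log2 units below, where 2.42% and 2.51% of tested genes were as low. The least affected were Scd1 (-0.35), Me1 (-0.29) and Elovl6 (0.12), and the median of the 10 genes was -0.63, beside -0.003 for all tested genes.

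The adipocyte markers moved with them in that library, with a median of -0.60, and the preadipocyte and fibroblast markers stood at 0.12. The part of cell composition in the lipogenic values was not tested. In vehicle replicate 2 the pattern was another one, with Elovl6 at 0.75, Me1 at 0.44, Scd1 at 0.37 and Mlxipl at 0.34 log2 units above their medians but Acaca at -0.21. There the preadipocyte and fibroblast markers stood at 0.59 and the adipocyte markers at -0.19. Vehicle replicate 3 was the lowest vehicle library for 6 of the 10 genes, most of all for Fasn (-0.69).

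**Figure D3:**
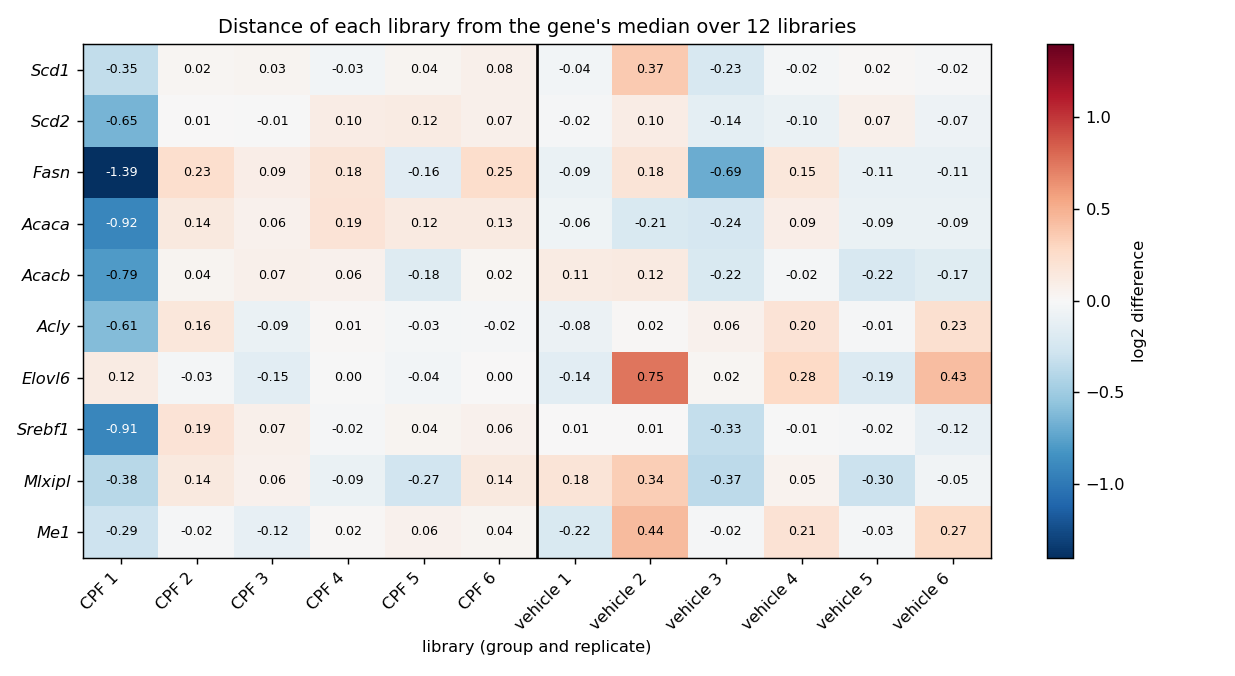
Log2 difference of each library from the gene's median over the 12 libraries (rows genes, columns libraries, CPF left of the line and vehicle right of it; red above and blue below the median). CPF replicate 1 is low in 9 of 10 rows, down to -1.39 for Fasn, and vehicle replicate 2 is high for Elovl6 (0.75), Me1 (0.44), Scd1 (0.37) and Mlxipl (0.34).

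Per kilobase of exon, the 10 transcripts spanned from Scd1, at 41803 ± 4226 normalized counts in CPF libraries and 43326 ± 6170 in vehicle libraries, to Elovl6, at 79.6 ± 4.78 and 94.3 ± 24.7 for CPF and vehicle (SD, n = 6 each). Averaged over the 12 libraries, Scd1 ranked 4 of 14766 genes per length, at 42565. Scd2 followed at 3049 (rank 100) and Acly at 2655 (rank 116).

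Fasn (1619), Srebf1 (1493) and Acacb (1442) formed a middle tier of per-length levels, and below it came Me1 (938), Acaca (400), Mlxipl (292) and Elovl6 (86.9, rank 5766). Neighbours in this order that did not separate were Fasn and Srebf1, ordered this way in 9 of 12 libraries, and Srebf1 and Acacb, in 7. Scd2 exceeded Acly, and Acaca exceeded Mlxipl, in 10 of 12 libraries each. The other neighbours kept their order in 12 of 12. With the longest annotated transcript as the length the order turned in places, with Acly (3166) above Scd2 (3054) and Srebf1 (1957) above Fasn (1763). Acaca came to 717 and Mlxipl to 446 on that length, and the uncertain reads of Acaca bear on its place.

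**Figure D4:**
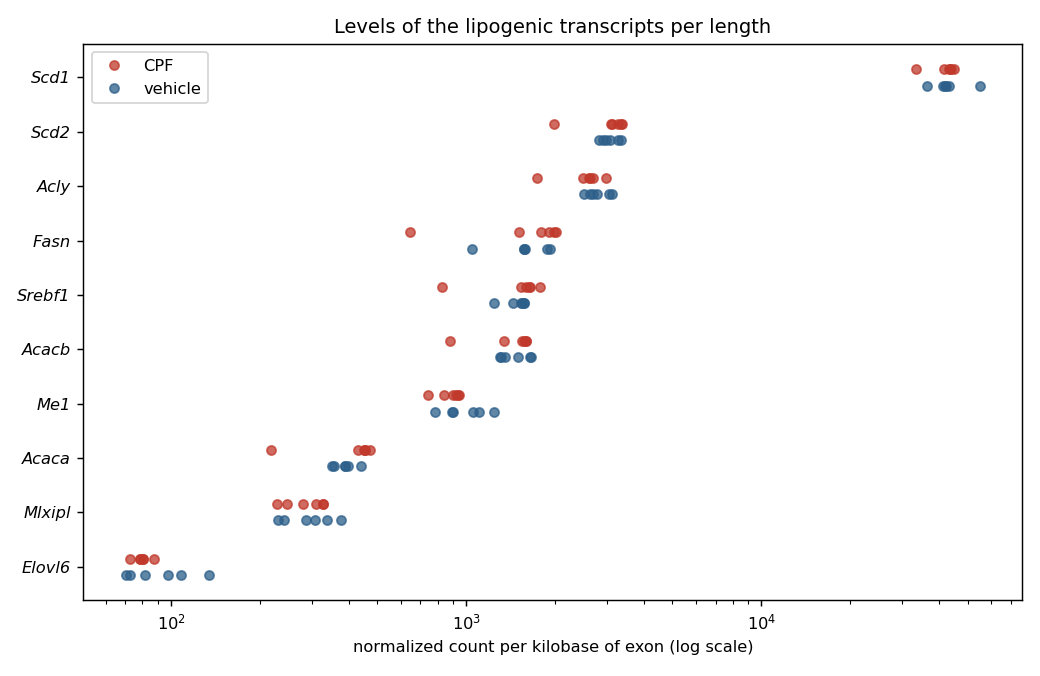
Normalized count per kilobase of exon in each library (log axis), CPF in red above vehicle in blue for each gene, ordered by the mean over 12 libraries. Scd1 stands alone at a mean of 42565, Fasn, Srebf1 and Acacb overlap, and Elovl6 is lowest at 86.9.

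The transcripts varied together across libraries, and 45 pairs were examined on log2 values over the 12 libraries, which share the culture and the normalization. Pearson's r was positive in 42 pairs, and 20 pairs had an adjusted permutation p under 0.05, all positive, while 1 pair did by Spearman's rho. Pairs of other genes were not counted in the same way, so these counts cannot be called particular to the lipogenic genes. Without CPF replicate 1 and vehicle replicate 2, 9 pairs were under that threshold, 7 of those 20 and 2 others (Acly with Elovl6 and Acly with Me1), and 12 pairs changed sign, so that much of the joint movement rests on these libraries. Taken as deviations from the group mean, the count was 23 with 12 libraries and 3 with those 10. Fasn and Srebf1 gave r = 0.95 (permutation p = 0.00042, adjusted p = 0.0069) and rho = 0.68 (permutation p = 0.0195, adjusted p = 0.110), and r = 0.51 without CPF replicate 1 and vehicle replicate 3, the libraries farthest from the median of Fasn. Acacb and Mlxipl, the pair that passed by rank, gave r = 0.78 (permutation p = 4e-04, adjusted p = 0.0069) and rho = 0.89 (permutation p = 0.00035, adjusted p = 0.0158), and r = 0.85 without the libraries farthest from the median of Acacb, CPF replicate 1 and vehicle replicate 5.

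The 9 pairs without CPF replicate 1 and vehicle replicate 2 fell into blocks that did not touch. In the first were Acly, Elovl6 and Me1, the genes with the most negative log2 fold changes: r over these 10 libraries was 0.85 for Acly and Elovl6 (adjusted permutation p = 0.0225), 0.80 for Acly and Me1 (adjusted permutation p = 0.0383) and 0.90 for Elovl6 and Me1 (adjusted permutation p = 0.0225). In the second were Fasn with Srebf1 (0.85), Acaca (0.85) and Mlxipl (0.73), Srebf1 with Scd1 (0.86) and Acaca (0.78), and Acacb with Mlxipl (0.86), at adjusted permutation p of 0.0366 to 0.0426. Over the 18 pairs with a gene in each block, r was -0.44 to 0.079, with a median of -0.10. The blocks were drawn from these same 10 libraries, so none of those pairs could be under the threshold. Their low r is therefore no separate evidence of blocks. Over all 12 libraries the blocks did touch, as Scd1 and Me1 gave r = 0.71 (adjusted permutation p = 0.0334). As 12-library deviations from the group mean, Acly and Acaca gave r = 0.88 (adjusted permutation p = 0.0121). Scd2 was in neither block. Within groups, as deviations from the group mean, the pairs under the threshold over these 10 libraries were Acacb with Mlxipl (r = 0.87), Acly with Elovl6 (r = 0.83) and Elovl6 with Me1 (r = 0.91). The 12 libraries gave r = 0.81 for Elovl6 and Me1 (permutation p = 0.00159, adjusted p = 0.0119) with rho = 0.63 (permutation p = 0.0322, adjusted p = 0.145), and r = 0.40 without vehicle replicates 2 and 6, so that the full value leans on those libraries.

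**Figure D5:**
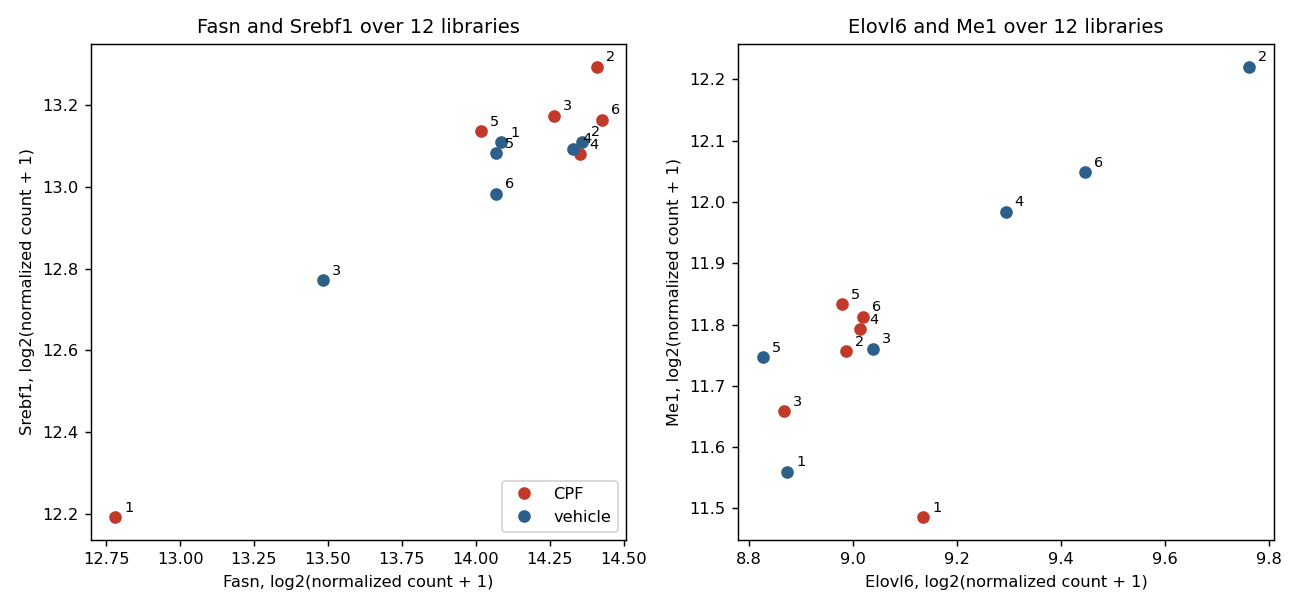
Log2 of normalized count plus 1 for Fasn against Srebf1 (left, r = 0.95 over 12 libraries) and Elovl6 against Me1 (right, r = 0.81), CPF in red and vehicle in blue, numbers giving the replicate. On the left CPF replicate 1 and vehicle replicate 3 lie far from the rest, and on the right vehicle replicates 2, 4 and 6 form the upper end.

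The transcripts most like Scd1 and Fasn in their course over the 12 libraries were listed by Pearson's r among all tested genes. For Scd1 they were Rnf152 (r = 0.95), Sept6 (0.95), Scarb1 (0.94), Lsm14b (0.94) and Golm1 (0.94), with r of 0.71 to 0.78 once CPF replicate 1 and vehicle replicate 2 were left out. Scarb1 codes for the HDL receptor that takes up cholesterol esters. For Fasn they were Acaa2 (0.99), Gpd1 (0.99), Gpd1l (0.99), Clstn3 (0.98) and Wdr91 (0.98), with r of 0.82 to 0.96 without CPF replicate 1 and vehicle replicate 3. Acaa2 is a thiolase of mitochondrial fatty acid oxidation, and Gpd1 makes the glycerol phosphate onto which fatty acids are built. These lists describe likeness over libraries and were picked as the highest values.

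The wider pathway was likewise without calls, with 0 genes of any list passing an adjusted p under 0.05. Genes named below for an unadjusted p under 0.05 stand beside 2.77% of all tested genes higher and 4.55% lower at that threshold by limma. Of 8 genes that supply citrate and acetyl-CoA, 6 had positive and 2 negative log2 fold changes (median 0.06), and Hlcs, which attaches biotin to the carboxylases, was at 284 ± 29.3 in CPF libraries and 237 ± 23.2 in vehicle libraries (log2 fold change 0.26, SE 0.085, unadjusted p = 0.00849, adjusted p = 0.611 by limma). Of 5 cytosolic enzymes that make NADPH, 4 were positive and 1 negative (median 0.07), 0 of them at an unadjusted p under 0.05. G6pdx, the entry to the pentose phosphate pathway, had a log2 fold change of 0.12 and Idh1 0.11.

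Among 15 tested genes of the other elongases, desaturases and their partners, 7 were positive and 8 negative (median -0.0037), and the dehydratase Hacd4 was at 92.7 ± 17.6 in CPF libraries and 121 ± 20.7 in vehicle libraries (log2 fold change -0.38, SE 0.14, adjusted p = 0.611 by limma). Of 16 genes that regulate SREBP-1, ChREBP or the carboxylases, 10 were positive and 6 negative (median 0.03), and those at an unadjusted p under 0.05 were Srebf2, the cholesterol-responsive sister of Srebf1 (log2 fold change -0.18, adjusted p = 0.639 by limma), and Usf1 (-0.17, adjusted p = 0.677). Of 4 known ChREBP targets, 3 were positive and 1 negative (median 0.11), Khk at 0.13 and Txnip at 0.13. In mitochondrial fatty acid synthesis, which makes the precursor of lipoic acid, 6 of 9 were positive and 3 negative (median 0.04). Lias, lipoic acid synthetase, was at 806 ± 22.5 in CPF libraries and 728 ± 33.9 in vehicle libraries (log2 fold change 0.15, SE 0.049, unadjusted p = 0.00841, adjusted p = 0.611 by limma). Its groups did not overlap, as was true of 0.466% of tested genes, and it was named for its small p. In CPF replicate 1 the lists differed: the median distance from the 12-library median was -0.65 for citrate and acetyl-CoA supply, -0.37 for the NADPH enzymes, -0.35 for the ChREBP targets and -0.22 for mitochondrial fatty acid synthesis, but -0.11 for the other elongases and desaturases and -0.017 for the regulators.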

How the data were processed

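RNA was measured in 12 libraries of TMCON brown adipocytes, with paired reads from a strand-specific kit. The authors used Trimmomatic for trimming, HISAT2 for alignment to GRCm38, HTSeq for counts of exonic reads per gene and DESeq2 for normalization, in versions that the sources used here do not give. The deposited signal is therefore the DESeq2-normalized count. Whole reads were recovered from it (100% of values within 0.01 read). The fold changes and p-values that the authors deposited, including their lists of changed genes, were not used, nor were 12 deposited ratio columns per library, whose names could not be matched to the labels. The labels name no plate, passage or batch of a library, and none was tested for CPF replicate 1.

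Genes with a mean of at least 10 (13531) were fitted with limma 3.58.1 in R 4.3.3 (trend and robust, two-sided, no covariates) on log2 of the value plus 1, with Benjamini-Hochberg adjustment and 0.05 as the threshold. Single genes were also compared by exact permutation over 924 arrangements, which cannot give a p under 0.00216, and pairs by 100000 permutations. Alternatives on recovered reads were edgeR 4.0.16 and DESeq2 1.42.0, and on normalized counts TMM, other filters and pseudocounts, a replicate block, sets of replicates and each library left out. Correlations of deviations from the group mean over 10 libraries were added after seeing the data. That CPF replicate 1 and vehicle replicate 2 stood apart was seen in these same libraries, so fits without them describe the data and do not test CPF. The fits were tested on simulated data. Intervals of read shares cover counting error only.

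The members and lists were chosen with earlier results of these data known. Named were all 10 genes, and of each list the tested genes with an unadjusted p under 0.05 (up to 4) or else the 2 with the smallest p, and the 5 genes most like Scd1 and the 5 most like Fasn. Lengths and shared 50-base stretches came from GENCODE M21, a later release than the authors' Ensembl annotation of the same assembly. Sept6 stands as a date in the deposited table and was named through its Ensembl identifier.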

Additional observations from a re-analysis of the deposited data

Results flagged for a closer look

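A value was singled out where the highest or lowest of the 6 libraries of a group lay apart from the others by more than Dixon's 95% critical share of the group's range, which chance gives in about 1 group in 20. Of the 20 groups of the lipogenic genes 7 met this, 6 of them through CPF replicate 1 as the lowest library: Scd1 at 163685 normalized counts, Scd2 at 10817, Fasn at 7033, Acaca at 3731, Acacb at 8500 and Srebf1 at 4680. The remaining value was Scd1 in vehicle replicate 2, the highest of its group at 268930. The genes were measured in the same libraries, so these values are not independent of each other.

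Of 28 groups of the other named genes 7 were singled out. In CPF replicate 1, G6pdx (2741 normalized counts), Idh1 (2145) and Txnip (17382) were the lowest of the CPF libraries, and Pdgfra (6338) and Acta1 (52.2) the highest. In vehicle replicate 2, G6pdx was the lowest vehicle library at 2864 and Pdgfra the highest at 8783.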

How the results depend on the processing

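None of the 10 lipogenic genes was called in any of 24 alternative fits. Of 240 alternative log2 fold changes 27 changed sign, in 7 genes. Part of the 240 could not change. Other filters, the replicate block and a term for replicates 1 to 3 and 4 to 6 leave a log2 fold change as it is. Without CPF replicate 1 and vehicle replicate 2 together the values were 0.087 for Scd1, 0.11 for Scd2, 0.29 for Fasn, 0.11 for Acacb, 0.16 for Srebf1 and 0.092 for Mlxipl, and 54 genes of the table were called. With replicates 4 to 6 alone they were 0.036, 0.13, 0.11, 0.11, 0.074 and 0.025 in the same order, with 22 genes called, and with replicates 1 to 3 alone Acaca was at -0.071. Fasn and Srebf1 were at 0.042 and 0.017 with edgeR and at 0.044 and 0.018 with DESeq2, which called 6 genes. With 1 library left out in turn, 0 to 11 genes were called (11 without CPF replicate 1), and log2 fold changes ranged from -0.095 to 0.024 for Scd1, -0.072 to 0.082 for Scd2, -0.14 to 0.23 for Fasn, 0.0055 to 0.23 for Acaca, -0.10 to 0.071 for Acacb, -0.22 to -0.06 for Acly, -0.28 to -0.10 for Elovl6, -0.076 to 0.14 for Srebf1, -0.11 to 0.029 for Mlxipl and -0.23 to -0.10 for Me1. Scd1, Fasn and Mlxipl changed sign without vehicle replicate 2 (0.024, 0.035 and 0.029) and Fasn without vehicle replicate 4 (0.029). The pairs of genes under the threshold numbered 20 with all libraries, 9 without CPF replicate 1 and vehicle replicate 2, and 3 as deviations from the group mean without them. Lengths from the longest transcript gave per-kilobase levels of 3166 for Acly, 1957 for Srebf1, 1097 for Me1, 717 for Acaca and 446 for Mlxipl. The cause of these changes was not tested beyond the libraries named.

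Replicate numbers were shared by the groups, and the deviations of same-numbered libraries correlated at -0.21, 0.03, 0.11, 0.23, 0.26 and 0.16 (over 0.1 in 4 of 6 pairs). Of the 12 libraries 2 correlated best with their own number, and the numbers were not taken to pair the samples. Every best match nevertheless fell in the same set, replicates 1 to 3 or replicates 4 to 6. Mitochondrially encoded genes took 2.68% to 3.67% of reads in replicates 1 to 3 and 3.90% to 5.09% in replicates 4 to 6. The labels do not say what divides these sets, and its cause was not tested. With a term for the sets, 0 genes were called. With the replicate number as a block, 0 genes were called (1026 at an unadjusted p under 0.05). The block cannot move a log2 fold change in this balanced design. It changed the SE of Me1 to 0.074, against 0.099 without it (unadjusted p = 0.0524 and 0.118, adjusted p = 0.661 and 0.729 by limma), and called none of the 10 genes.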
